A study of Mus musculus with 23 samples.

Results

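The transcription factors Hnf4a, Hnf4g, Cdx1, Cdx2, Pdx1, Foxa1, Foxa2, Foxa3, Spdef and Gata4, which build and maintain gut, liver and pancreas epithelium, were followed in sorted medullary thymic epithelial cells (mTECs) with and without Aire. The 10 genes were taken by name, and each symbol matched 1 of the 53402 gene identifiers of the deposited count table. Of the 10 genes, 9 were among the 19310 that passed the filter on low counts, and Pdx1 did not pass it. The study sequenced total RNA of thymus cells of C57BL/6 mice. Live cells with EpCAM and without Ly51 or the blood cell marker CD45, as told by DAPI and antibodies, had been sorted by their MHC class II into high (mTEChi) and low (mTEClo) cells. The 23 libraries formed 4 groups, with 4 of Aire KO mTEChi, 7 of WT mTEChi, 4 of Aire KO mTEClo and 8 of WT mTEClo. Every KO library was labelled male. In each gate 2 KO libraries were of 5 weeks and 2 of 6 weeks. WT mTEChi held 5 male and 2 female libraries, 2 of 4 weeks and 5 of 5 weeks. WT mTEClo held 5 male and 3 female libraries, 5 of 4 weeks and 3 of 5 weeks. The labels give neither the Aire allele nor whether libraries came from separate animals, so p-values measure the spread between libraries, which may be technical in part.

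mTECs make proteins that are otherwise restricted to peripheral organs and show them to developing T cells, which removes T cells that would attack those organs. Aire is the nuclear regulator that many of these genes depend on, and it acts mostly in mTEChi. Subsets of mTECs also resemble gut, liver, lung or other epithelia, and the lineage transcription factors of those organs are expressed in them. In the organs themselves HNF4 proteins are nuclear receptors, and FOXA proteins are forkhead pioneer factors that open the chromatin of endoderm genes. CDX proteins and PDX1 are homeodomain factors that pattern the gut tube from front to back. GATA4 is a zinc finger factor of foregut and proximal intestine, and SPDEF is an ETS factor of goblet and other mucous cells. Bulk RNA cannot tell fewer cells of a subset from less RNA per cell, and this holds for every level below.

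Library totals were 2528049 to 3106026 counts in KO mTEChi, 1602125 to 3231079 in WT mTEChi, 1639231 to 3938588 in KO mTEClo and 1628778 to 3883437 in WT mTEClo. Levels are given as CPM, counts scaled to a common library size, with library sizes set by the trimmed mean of M values (TMM), in the order of the replicate numbers. Aire was at 17.1 to 39.3 CPM in KO mTEChi against 753 to 921 CPM in WT mTEChi. It was at 0 to 7.58 CPM in KO mTEClo against 19.6 to 128 CPM in WT mTEClo. Aire thus separated KO from WT libraries in both gates without overlap. All 20 listed mTEC marker genes were detected in all groups. Epcam, the adhesion molecule used in the sort, averaged 224 ± 16.2 CPM in KO mTEChi, 244 ± 37.2 in WT mTEChi, 249 ± 12.5 in KO mTEClo and 254 ± 34.1 in WT mTEClo (SD). Within the groups the main direction of spread separated KO libraries of 5 weeks from those of 6 weeks in both gates. The next one separated the 2 WT mTEChi libraries of 4 weeks from the rest, which are also 2 of the 6 shallowest libraries (under 2000000 counts).

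**Figure D1:**
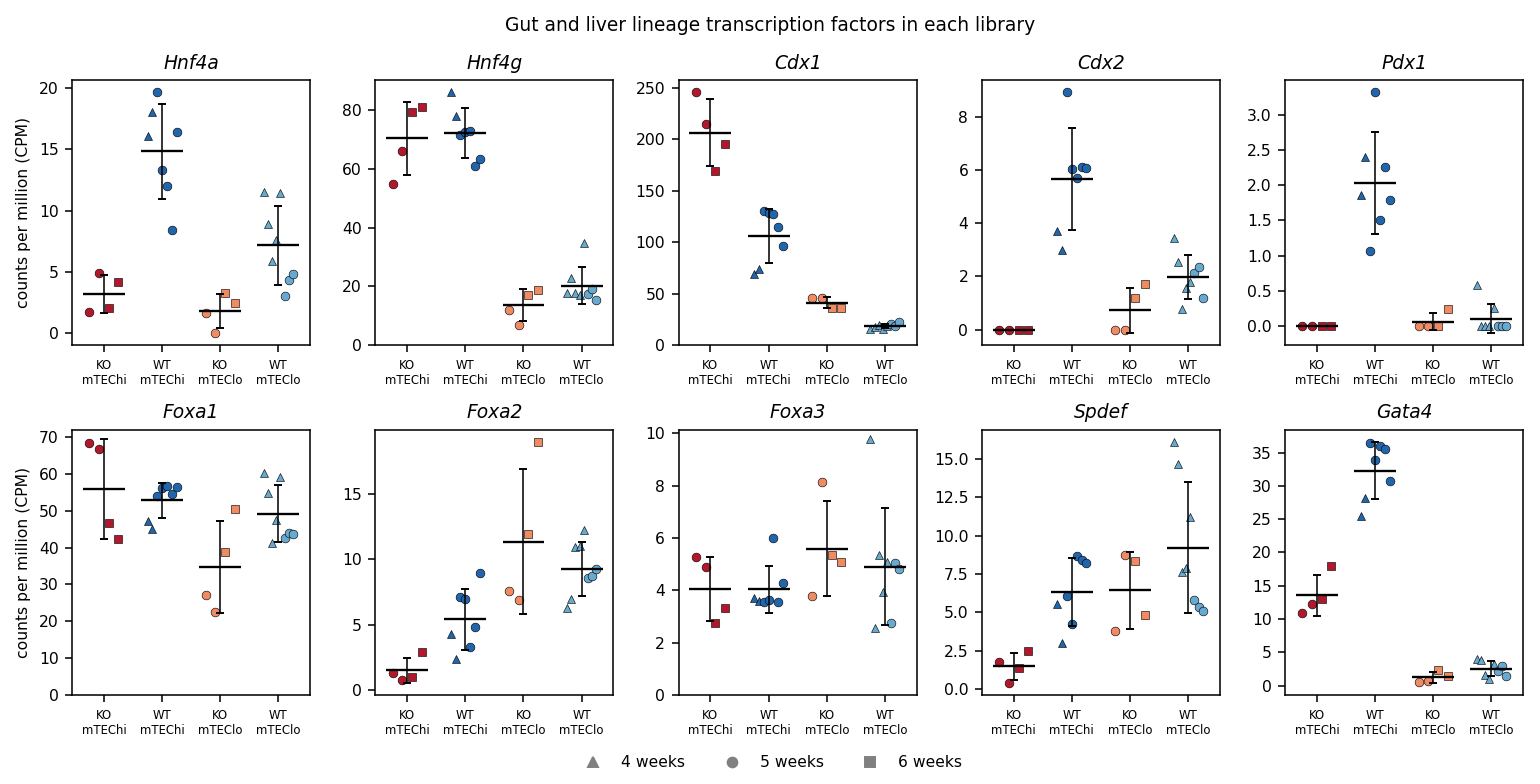
CPM of each of the 10 transcription factors (y axes, linear, 1 panel per gene) in every library of the 4 groups; triangles, circles and squares are libraries of 4, 5 and 6 weeks, and lines with bars are the mean and SD. Cdx2 and Pdx1 sit at 0 in all 4 KO mTEChi libraries, and Cdx1 is higher in every KO library than in every WT library of the same gate.

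Per kilobase of exon, Cdx1, a caudal homeobox factor of posterior gut, stood highest of the 10 in 3 groups, with 118 ± 18.6 CPM per kb in KO mTEChi, 60.5 ± 15.1 in WT mTEChi and 23.6 ± 3.0996 in KO mTEClo (SD). Hnf4g, the HNF4 form known from intestine and kidney, followed with 26.7 ± 4.69 CPM per kb in KO mTEChi and 27.4 ± 3.24 in WT mTEChi, and then Foxa1, a pioneer factor of many endoderm and gland epithelia, with 16.8 ± 4.07 and 15.9 ± 1.44. In WT mTEClo the order at the top was turned, with Foxa1 at 14.8 ± 2.31, Cdx1 at 10.7 ± 1.31 and Hnf4g at 7.71 ± 2.39 CPM per kb. The middle of the order in WT mTEChi ran from Gata4 at 8.27 ± 1.097 CPM per kb to Hnf4a at 3.07 ± 0.799, Spdef at 2.74 ± 0.963, Cdx2 at 2.501 ± 0.848, Foxa2 at 2.28 ± 0.985 and Foxa3 at 1.99 ± 0.4404. Each of these last 5 overlapped its neighbour in the order from library to library, whereas Cdx1, Hnf4g, Foxa1 and Gata4 did not overlap with each other or with the rest. Pdx1, the homeobox factor of pancreas and duodenum, was last in WT mTEChi with 0.9398 ± 0.336 CPM per kb and stood at or near 0 in the other groups. The 2 members of the HNF4 family and the 2 of the CDX family were therefore expressed very unequally, with Hnf4g above Hnf4a and Cdx1 above Cdx2 in each of the 4 groups.

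Loss of Aire in mTEChi went with lower levels of 5 of the 9 tested transcription factors, a higher level of 1, and no call for 3. Hnf4a, Cdx2, Foxa2, Spdef and Gata4 fell, Cdx1 rose, and Hnf4g, Foxa1 and Foxa3 did not pass the test. The test was edgeR's quasi-likelihood test with Benjamini-Hochberg adjustment over all tested genes and a threshold of 0.05. Pdx1, which was too low for that test, was at 0 in all 4 KO libraries. Of all tested genes 28% were called lower and 25.7% higher in the same comparison, and 5 of 9 and 1 of 9 stand beside these shares. The median log2 change was -1.21 over the 9 factors and -0.01 over all tested genes.

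Of the HNF4 pair, Hnf4a, the master regulator of hepatocytes and enterocytes, was at 1.76, 4.91, 2.05 and 4.18 CPM in the KO mTEChi libraries against 8.39 to 19.6 CPM with a median of 16.1 in WT mTEChi. The groups did not overlap, and Hnf4a was 4.65-fold lower (log2 -2.22 ± 0.39 (SE), adjusted p = 2.8e-05). Its sister gene Hnf4g was at 54.8, 65.9, 79.4 and 81.03 CPM in KO mTEChi against 60.995 to 86.1 CPM with a median of 72.5 in WT mTEChi. The groups overlapped throughout, with a log2 difference of 0.03 and a 95% interval -0.33 to 0.39 (adjusted p = 0.9).

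Of the caudal pair, Cdx1 was at 246, 215, 169 and 195 CPM in KO mTEChi against 68.8 to 131 CPM with a median of 115 in WT mTEChi. All 4 KO libraries were above all 7 WT libraries, and Cdx1 was 2.05-fold higher (log2 1.03 ± 0.13 (SE), adjusted p = 2.9e-07). The lowest WT libraries were the 2 of 4 weeks, at 68.8 to 73.8 CPM, and the 5 of 5 weeks were at 96.8 to 131 CPM. Cdx2, the homeobox factor that holds intestinal identity, went the other way: it had no count in any of the 4 KO mTEChi libraries, against 3.0003 to 8.93 CPM with a median of 6.04 in WT mTEChi (111 counts in all). With the limit of 3 counts over the KO group, which covers counting error only, Cdx2 was at least 18.9-fold lower (adjusted p = 4.3e-07). Pdx1 likewise had no count in KO mTEChi, against 1.07 to 3.32 CPM with a median of 1.86 in WT mTEChi (38 counts in all), and was at least 6.79-fold lower. The exact two-sided permutation p over the 11 libraries was 0.00303, the smallest this design allows, and in a fit of all genes without the filter the adjusted p of Pdx1 was 6.6e-05.

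Of the 3 forkhead factors only Foxa2, which acts in foregut, lung, liver and islet cells, passed the test in mTEChi. It was at 1.32, 0.818, 1.03 and 2.92 CPM in KO mTEChi against 2.4003 to 8.93 CPM with a median of 4.84 in WT mTEChi. Of the KO libraries 1, replicate 4, lay above the lowest WT library, and Foxa2 was 3.62-fold lower (log2 -1.85 ± 0.45 (SE), adjusted p = 9.1e-04). Foxa1 was at 68.4, 66.7, 46.6 and 42.2 CPM in KO mTEChi against 45.005 to 56.7 CPM with a median of 54.5 in WT mTEChi. The KO libraries of 5 weeks stood above the WT range and of those of 6 weeks 1 lay near its lower end and 1 below it (95% interval -0.25 to 0.43 of the log2 difference). Foxa3, the FOXA form best known from liver and goblet cells, was at 5.27, 4.91, 2.74 and 3.34 CPM in KO mTEChi against 3.55 to 5.999 CPM with a median of 3.62 in WT mTEChi, and its 95% interval -0.64 to 0.71 spans 0 widely.

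Spdef, the ETS factor that drives goblet cell maturation, was at 1.76, 0.409, 1.37 and 2.51 CPM in KO mTEChi against 3.0003 to 8.699 CPM with a median of 6.07 in WT mTEChi. No KO library reached a WT library, and Spdef was 4.48-fold lower (log2 -2.16 ± 0.47 (SE), adjusted p = 2.9e-04). Gata4, a factor of stomach, proximal intestine and heart, was at 10.97, 12.3, 13.01 and 17.96 CPM in KO mTEChi against 25.4 to 36.4 CPM with a median of 33.8 in WT mTEChi. Its groups were also apart, and Gata4 was 2.31-fold lower (log2 -1.21 ± 0.21 (SE), adjusted p = 2.5e-05), the smallest of the 5 falls. All 6 calls in mTEChi were kept with each library left out in turn, with males only, with males of 5 weeks only and without the 6 shallowest libraries.

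**Figure D2:**
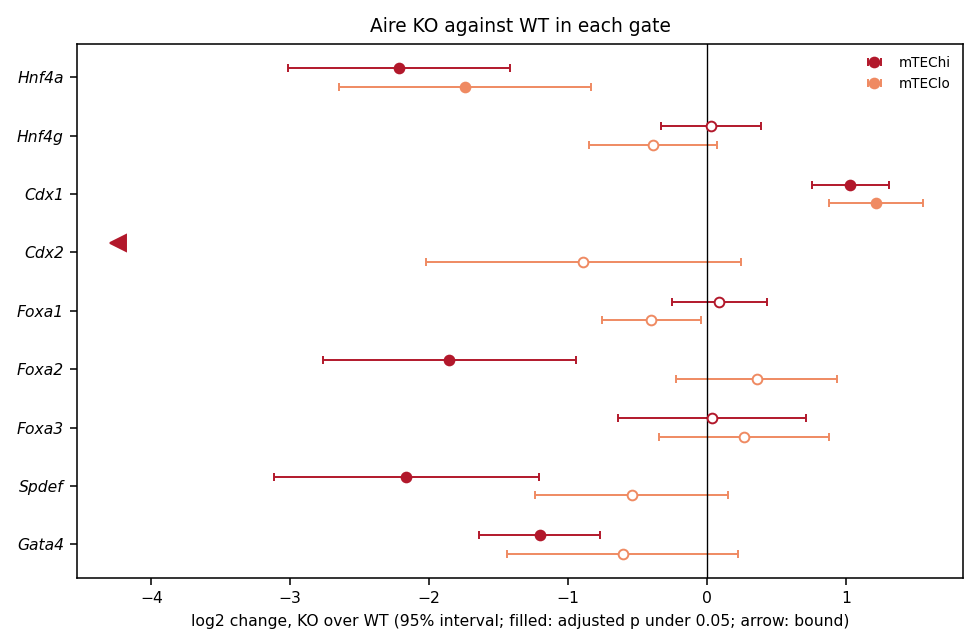
Log2 change of the 9 tested transcription factors in KO over WT (x axis), in mTEChi (dark) and mTEClo (light); points are estimates with 95% intervals, filled where the adjusted p was under 0.05, and the arrow is the bound of Cdx2 in mTEChi, where all KO libraries were at 0. Hnf4a lies to the left and Cdx1 to the right of 0 in both gates, while Foxa2, Spdef and Gata4 are filled in mTEChi only.

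Cell type markers were summed per library as a check beside these changes. For 13 fibroblast genes the sums were 267 to 294 CPM in KO mTEChi against 361 to 535 in WT mTEChi, and for 13 thymocyte genes 48.95 to 64.6 against 84.6 to 101. They were 352 to 403 against 198 to 235 for 9 B cell genes, 631 to 709 against 533 to 611 for 14 dendritic cell and macrophage genes and 1207 to 1329 against 963 to 1065 for 12 genes of cortical thymic epithelium. The sums of endothelial genes overlapped, at 238 to 317 CPM in KO mTEChi against 238 to 321 in WT mTEChi. The calls by gene did not follow the sums in each list. Of 11 tested dendritic cell and macrophage genes 7 fell and 3 rose, and of 9 endothelial genes 6 fell and 1 rose. Of 8 B cell genes 2 fell and 4 rose, and of 12 cortical epithelium genes 4 fell and 4 rose. Of 12 fibroblast genes 8 fell and 1 rose, and of 8 thymocyte genes 5 fell and none rose. Over all tested genes 28% were lower and 25.7% higher. In mTEClo the ranges of KO and WT libraries were apart for the sums of fibroblast genes (389.7 to 446 against 560.1 to 705 CPM), cTEC genes (881 to 1144 against 595 to 737) and dendritic cell and macrophage genes (178 to 222 against 114 to 147). By gene, 1 of 12 tested fibroblast genes fell there and 2 rose, with a median log2 change of 0.49, so these calls did not follow the lower sum. Of 11 dendritic cell and macrophage genes 1 fell and 2 rose (median -0.18), and of 12 cTEC genes none fell and 10 rose (median 1.11). Over all tested genes 9.69% were lower and 12% higher in KO mTEClo. Of these 6 lists the genes at 0 in KO mTEChi were Siglech, a marker of plasmacytoid dendritic cells, and Tie1, an endothelial receptor. The part of such cells in the changes of the transcription factors was not tested.

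Pdx1 and Cdx2 are neighbours in the ParaHox cluster of homeobox genes, with 24.96 kb between their ends on chromosome 5 in GRCm38 (Pdx1 at 147269959 to 147275848 on the plus strand, Cdx2 at 147300805 to 147307270 on the minus strand). The genes around them were therefore read as well, a choice made after the values of Pdx1 and Cdx2 were seen. Plut, a long noncoding RNA transcribed against Pdx1, had no count in KO mTEChi against 40 counts in WT mTEChi (1.9003 ± 1.19 CPM). Gm27033, a noncoding gene between the homeobox genes, had no count against 8, and Urad, a gene of urate breakdown next to Cdx2, had no count against 11. All WT mTEChi libraries had counts of Urad, whereas 1 had none of Plut and 2 had none of Gm27033, so for the noncoding pair the groups overlapped, and the bound for Gm27033 was 1.28-fold. With Pdx1 and Cdx2, which prompted the look, 5 neighbouring genes had no count in KO mTEChi. Plut, Gm27033 and Urad had no count in KO mTEClo either, and WT mTEClo had 2 counts of Plut and none of Gm27033 and Urad. Of the 27692 identifiers with at least 8 counts in WT mTEChi, 8.03% had none in KO mTEChi. That set has no upper limit on counts, so it also holds genes far above these 5. The share among identifiers with counts like theirs was not computed. Farther out, Gsx1, the third ParaHox gene, had 3 counts in KO mTEChi against 10 in WT mTEChi, and the groups overlapped. Flt3, a cytokine receptor gene beyond Urad, was at 12.5 ± 2.54 CPM in KO mTEChi against 15.96 ± 3.07 CPM in WT mTEChi. The test made no call for it (log2 -0.31 ± 0.28, adjusted p = 0.37). The libraries carry no strand information, but the exons of Pdx1 and Plut do not overlap in the annotation, so their counts do not share exonic reads.

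**Figure D3:**
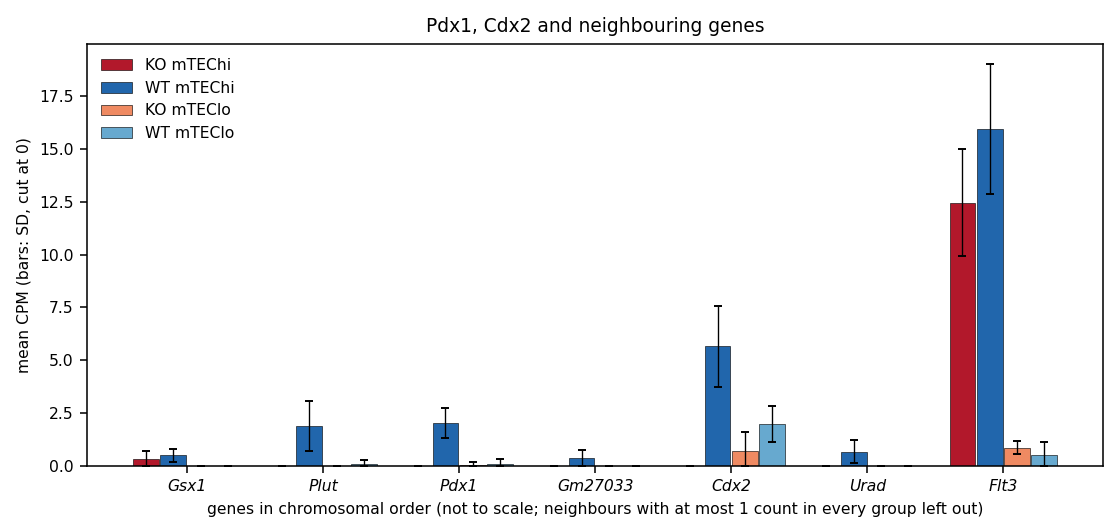
Mean CPM (y axis, linear) of Pdx1, Cdx2 and neighbouring genes in chromosomal order (x axis, not to scale) in the 4 groups, with SD as bars. KO mTEChi has no bar from Plut to Urad, while Flt3 stands at 12.5 CPM in KO mTEChi and 15.96 CPM in WT mTEChi.

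The promoters of the factors that lost the most in KO mTEChi are shown because Pdx1 and Cdx2 moved together and because Hnf4a has alternative promoters, known from pancreas and fetal gut (the upstream one) and from liver and adult gut (the downstream one). Each sequence is the RefSeq promoter on GRCm38.p6, 5′ to 3′ on the strand of the gene, with 250 bases before and 50 after the start, and capitals mark the motif matches named below.
Cdx2 (chr5:147307200-147307499, minus strand): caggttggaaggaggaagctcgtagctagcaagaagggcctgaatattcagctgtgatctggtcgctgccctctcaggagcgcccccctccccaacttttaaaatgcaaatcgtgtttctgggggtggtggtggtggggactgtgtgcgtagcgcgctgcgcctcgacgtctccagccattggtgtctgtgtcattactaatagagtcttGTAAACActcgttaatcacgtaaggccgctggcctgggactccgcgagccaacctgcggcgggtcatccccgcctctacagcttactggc
Pdx1 (chr5:147269847-147270146, plus strand): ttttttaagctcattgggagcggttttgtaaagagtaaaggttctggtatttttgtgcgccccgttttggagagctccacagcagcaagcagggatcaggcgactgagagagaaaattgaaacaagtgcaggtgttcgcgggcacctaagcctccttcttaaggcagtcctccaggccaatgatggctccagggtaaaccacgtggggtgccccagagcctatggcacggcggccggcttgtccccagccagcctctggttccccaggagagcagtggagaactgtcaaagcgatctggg
Hnf4a, upstream (chr2:163506607-163506906, plus strand): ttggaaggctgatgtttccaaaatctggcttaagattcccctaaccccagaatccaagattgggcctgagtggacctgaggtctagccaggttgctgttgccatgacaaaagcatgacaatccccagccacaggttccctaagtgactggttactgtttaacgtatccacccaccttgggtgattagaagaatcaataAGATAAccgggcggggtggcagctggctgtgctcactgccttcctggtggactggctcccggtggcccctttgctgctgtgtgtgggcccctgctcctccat
Hnf4a, downstream (chr2:163546905-163547204, plus strand): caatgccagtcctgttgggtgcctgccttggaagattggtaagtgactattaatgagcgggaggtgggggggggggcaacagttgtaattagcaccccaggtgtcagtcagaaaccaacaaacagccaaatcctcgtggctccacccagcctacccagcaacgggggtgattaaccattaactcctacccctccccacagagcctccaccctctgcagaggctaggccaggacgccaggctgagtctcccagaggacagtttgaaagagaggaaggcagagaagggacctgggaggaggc

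The table held promoters for 7 of the 10 genes. The motifs searched on both strands were CAAAGTCCA for HNF4, TGTTTAC for FOXA, TTTATGG for CDX, AGATAA for GATA and TATAAA for a TATA box. Of the 32817 promoters in the table, 0.475%, 3.65%, 2.75%, 11.2% and 13.6% held them, in that order. The Cdx2 promoter held a FOXA match on the opposite strand at -40 from the start, and the upstream Hnf4a promoter held a GATA match at -52. A Foxa2 promoter held a GATA match at -183 and a TATA box on the opposite strand at -208. Foxa1 and Foxa3, which were not called in KO mTEChi, held matches as well. These were a FOXA match on the opposite strand at -141 and a TATA box at -36. The Pdx1 promoter, the downstream Hnf4a promoter and the Spdef promoter held none of the 5 motifs. Cdx2 and Pdx1 had 18 and 11 CpG dinucleotides in these 300 bases and each Hnf4a promoter had 4, against a median of 7 over all promoters. The counts are summed per gene, so which Hnf4a promoter was in use was not tested.

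In mTEClo, loss of Aire went with fewer calls. Hnf4a fell, Cdx1 rose, and the other 7 tested factors did not pass. Among all tested genes 9.69% were called lower and 12% higher, so 1 lower and 1 higher call among 9 was close to the share over all genes. The median log2 change was -0.40 over the 9 factors and 0.01 over all tested genes.

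Cdx1 was at 45.5, 46.3, 36.6 and 36.4 CPM in KO mTEClo against 15.5 to 22.2 CPM with a median of 18.7 in WT mTEClo. The groups were far apart, and Cdx1 was 2.32-fold higher (log2 1.22 ± 0.17 (SE), adjusted p = 4.2e-06). Hnf4a was at 1.62, 0, 3.28 and 2.43 CPM in KO mTEClo against 3.05 to 11.5 CPM with a median of 6.73 in WT mTEClo. It was 3.35-fold lower (log2 -1.74 ± 0.44 (SE), adjusted p = 0.0054), with 1 KO library above the lowest WT library. Within WT mTEClo the 5 libraries of 4 weeks, at 5.86 to 11.5 CPM, were all above the 3 of 5 weeks, at 3.05 to 4.797 CPM. With age as a further term the Hnf4a change was -1.04 (adjusted p = 0.3), and without the 6 shallowest libraries it was -1.13 (adjusted p = 0.1), so the call was lost in both.

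Cdx2 was at 0, 0, 1.19 and 1.6998 CPM in KO mTEClo against 0.765 to 3.45 CPM with a median of 1.96 in WT mTEClo. Both KO libraries of 5 weeks had no count and both of 6 weeks had some, and the group difference did not pass (log2 -0.89, 95% interval -2.02 to 0.24). Pdx1 was at or under the limit of 3 counts in both groups, with 1 count in KO mTEClo and 2 in WT mTEClo, so no fold is given. Hnf4g was at 11.9, 6.89, 16.98 and 18.9 CPM in KO mTEClo against 15.3 to 34.9 CPM with a median of 17.8 in WT mTEClo, with a 95% interval -0.85 to 0.07. Foxa2 was at 7.58, 6.89, 11.9 and 18.9 CPM in KO mTEClo against 6.32 to 12.2 CPM with a median of 9.01 in WT mTEClo, with a 95% interval -0.22 to 0.94. Spdef was at 3.79, 8.77, 8.34 and 4.86 CPM in KO mTEClo against 5.097 to 16.1 CPM with a median of 7.76 in WT mTEClo (95% interval -1.24 to 0.15), again with the WT libraries of 4 weeks, at 7.65 to 16.1 CPM, above those of 5 weeks, at 5.097 to 5.797 CPM. The groups overlapped for Hnf4g, Foxa2 and Spdef. Foxa1 was at 27.1, 22.5, 38.7 and 50.5 CPM in KO mTEClo against 41.3 to 60.3 CPM with a median of 45.7 in WT mTEClo, and its 95% interval -0.75 to -0.05 lies just below 0 although its adjusted p of 0.097 missed the threshold. Foxa3 and Gata4 were not called, with intervals of -0.35 to 0.88 and -1.44 to 0.22 on the log2 scale. Foxa3 averaged 5.597 ± 1.83 CPM in KO mTEClo against 4.91 ± 2.24 in WT mTEClo, and Gata4 1.25 ± 0.8597 against 2.55 ± 1.14 (SD).

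The KO effect was then compared between the gates by the interaction of genotype and gate. It differed for Cdx2, Foxa2 and Spdef, each with the lower KO effect in mTEChi, and was called for none of the other 6 tested factors. Over all tested genes 14% had a lower and 10.8% a higher KO effect in mTEChi than in mTEClo at the same threshold. Foxa2 differed by a log2 of -2.21 ± 0.51 (SE, adjusted p = 0.0019), since it fell in mTEChi and had a positive estimate in mTEClo. Spdef differed by -1.62 ± 0.58 (adjusted p = 0.039), a call that was lost in 17 of 35 alternatives. Cdx2 was called as well (adjusted p = 9.8e-04), but its size rests on libraries at 0 and is not given. With KO libraries of 5 weeks only, none of the 3 was called (adjusted p = 0.054 for Foxa2, 0.11 for Spdef and 1 for Cdx2, which was then at 0 in both KO gates). For Cdx1 the KO effects differed by -0.18 (95% interval -0.60 to 0.23) and for Hnf4a by -0.47 (95% interval -1.76 to 0.81), neither of which passed.

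Between the gates of WT mice, mTEChi held more of 5 of the 9 tested factors and less of 1. Gata4, Cdx1, Hnf4g, Cdx2 and Hnf4a were higher in mTEChi, Foxa2 was lower, and Foxa1, Foxa3 and Spdef were not called. Of all tested genes 36.7% were higher and 33.4% lower in WT mTEChi. The median log2 difference was 1.04 over the 9 factors and 0.00 over all tested genes.

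Gata4 averaged 32.3 ± 4.28 CPM in WT mTEChi and 2.55 ± 1.14 CPM in WT mTEClo (SD), and its difference was the largest of the 9 at 13.8-fold (log2 3.79 ± 0.20 (SE), adjusted p = 4.9e-16). Cdx1 averaged 106 ± 26.3 CPM in WT mTEChi and 18.7 ± 2.297 in WT mTEClo, 5.77-fold higher (log2 2.53 ± 0.13 (SE), adjusted p = 9.5e-17). Hnf4g was 3.58-fold, Cdx2 3.15-fold and Hnf4a 2.06-fold higher in WT mTEChi (adjusted p = 1.5e-11, 5.7e-05 and 8.5e-04). For Gata4, Cdx1 and Hnf4g the gates did not overlap, whereas for Cdx2 and Hnf4a they did. Pdx1, at 38 counts in WT mTEChi and 2 in WT mTEClo, was 25.1-fold higher with an exact 95% counting interval of 6.48 to 214 (exact two-sided permutation p = 1.6e-04, the smallest 7 against 8 libraries allow). Foxa2 averaged 5.41 ± 2.33 CPM in WT mTEChi and 9.26 ± 2.05 in WT mTEClo and was 1.698-fold lower (log2 -0.76 ± 0.25 (SE), adjusted p = 0.0084), a call lost with males only (adjusted p = 0.088).

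Without Aire the gates differed for 7 of the 9 factors, 4 higher and 3 lower in mTEChi. Among all tested genes 29.2% were higher and 28% lower, with a median log2 difference of 0.57 over the 9 and 0.00 over all. Gata4, Cdx1 and Hnf4g were still higher in mTEChi, by 9.13-fold (adjusted p = 3.1e-09), 5.08-fold (adjusted p = 2.6e-13) and 4.78-fold (adjusted p = 7.6e-10). None of the 3 overlapped between KO gates. Foxa2 averaged 1.52 ± 0.957 CPM in KO mTEChi and 11.3 ± 5.54 in KO mTEClo and was 7.87-fold lower in mTEChi (log2 -2.98 ± 0.43 (SE), adjusted p = 5.9e-07). Spdef averaged 1.51 ± 0.873 CPM in KO mTEChi and 6.44 ± 2.49 in KO mTEClo and was 4.16-fold lower (log2 -2.06 ± 0.50 (SE), adjusted p = 8.0e-04). Cdx2, with no count in KO mTEChi and 11 in KO mTEClo, was at least 2.42-fold lower in KO mTEChi (adjusted p = 0.0049), with all 11 counts in the 2 mTEClo libraries of 6 weeks. Hnf4a was not called between KO gates, with a 95% interval -0.55 to 1.69 on the log2 scale. Foxa1 was 1.54-fold higher in KO mTEChi (log2 0.62 ± 0.19 (SE), adjusted p = 0.0055). A fit of the KO libraries alone took the replicate number as a block, which treats same-numbered libraries as pairs. There the Foxa1 difference was 0.61 with an adjusted p of 0.12, so its call was lost. It was also lost without the 6 shallowest libraries (log2 0.30, adjusted p = 0.14), and with KO libraries of 6 weeks only the difference turned to -0.019 (adjusted p = 0.96). In the block fit Hnf4g, Cdx1, Foxa2 and Gata4 kept theirs and Hnf4a, Cdx2 and Spdef did not pass its filter on low counts.

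**Figure D4:**
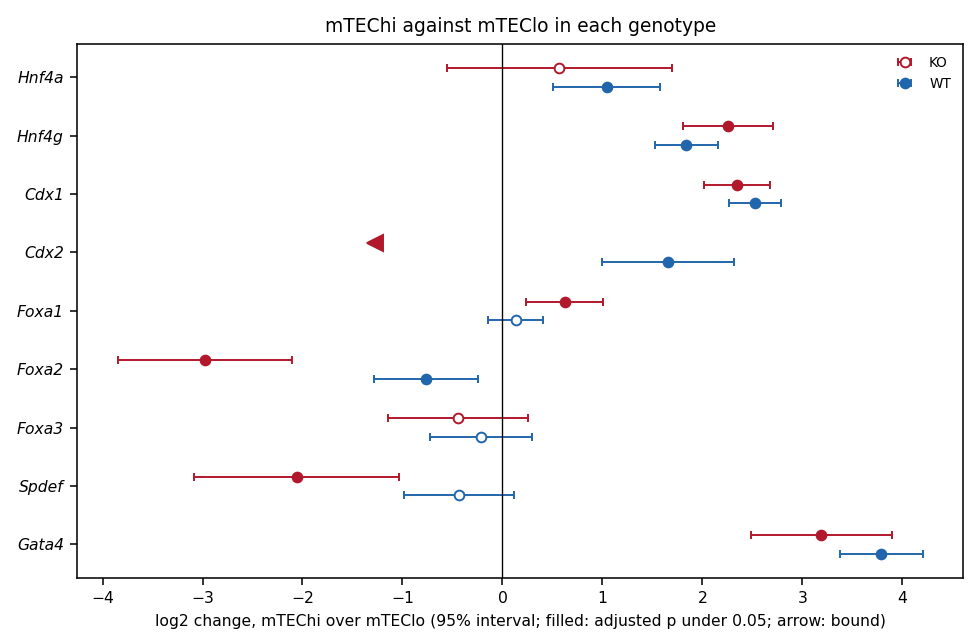
Log2 difference of the 9 tested transcription factors in mTEChi over mTEClo (x axis) in KO (red) and WT (blue) libraries; points are estimates with 95% intervals, filled where the adjusted p was under 0.05, and the arrow is the bound of Cdx2 in KO libraries. Gata4, Cdx1 and Hnf4g lie to the right of 0 in both genotypes, and Foxa2 and Spdef lie farther to the left in KO than in WT libraries.

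Foxa1 moved with the age of the KO libraries and in opposite directions in the gates. In KO mTEChi the libraries of 5 weeks were at 66.7 to 68.4 CPM and those of 6 weeks at 42.2 to 46.6 CPM, while in KO mTEClo those of 5 weeks were at 22.5 to 27.1 CPM and those of 6 weeks at 38.7 to 50.5 CPM. WT libraries of 5 weeks were at 53.9 to 56.7 CPM in mTEChi and 42.7 to 43.99 CPM in mTEClo. With KO libraries of 5 weeks only, Foxa1 was higher in KO than in WT mTEChi (log2 0.36, adjusted p = 0.034) and lower in KO than in WT mTEClo (log2 -0.94, adjusted p = 4.6e-04). With KO libraries of 6 weeks only the log2 changes were -0.23 and -0.09 and neither passed. In KO mTEChi both libraries of 6 weeks were also above both of 5 weeks for Hnf4g and Gata4 and below them for Cdx1 and Foxa3. Hnf4a, Hnf4g, Cdx2, Foxa2 and Gata4 in KO mTEClo were likewise higher in both libraries of 6 weeks than in both of 5 weeks, and Cdx1 was lower. The share of all tested genes that splits by age in this way was not computed. The main direction of spread also split the KO libraries by age, so these splits are not read as a trait of the factors. The KO mTEClo libraries of 5 weeks are the only KO libraries among the 6 shallowest, so age and depth cannot be told apart there.

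The genes whose profiles over the 23 libraries were most like those of the factors were found by the root mean square difference of centred log2 CPM (prior count 2), in log2 units. For Hnf4a they were Itgam (0.4297), Muc13 (0.435), Slc10a5 (0.537). For Cdx2 they were Stk32a (0.513), Acox2 (0.517), Gm42768 (0.536), and for Cdx1 they were Rnft2 (0.205), Apba1 (0.235), Msi1 (0.245). Hnf4g was closest to Cnnm1 (0.278), Gbp8 (0.306), Gipc2 (0.318) and Gata4 to Nlrp6 (0.424), H2-Q10 (0.426), Gm47171 (0.427). Among the forkhead genes, Foxa1 was closest to Sh3kbp1 (0.189), Erbb3 (0.212), Hps3 (0.214), Foxa2 to Camk1d (0.383), Tanc2 (0.387), Ankrd44 (0.405) and Foxa3 to D130017N08Rik (0.325), Bcl7c (0.328), Nol12 (0.3299). Spdef was closest to Sidt1 (0.4659), Hr (0.4902), Mlph (0.504). Among the factors themselves, Hnf4a and Cdx2 were each other's nearest at 0.766, Foxa2 and Spdef at 0.708 and Foxa1 and Foxa3 at 0.556. Cdx1 was nearest to Hnf4g rather than to Cdx2. The libraries share groups and depth, so these likenesses are descriptions.

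Other transcription factors of the same organs were called in both directions. Of 17 tested intestine factors 8 fell and 5 rose in KO mTEChi, and of 15 liver factors 4 fell and 5 rose. Of 11 pancreas and endocrine factors 3 fell and 1 rose, and of 14 other endoderm and airway factors 4 fell and 2 rose. Over all tested genes 28% were lower and 25.7% higher. The shares that fell among tested liver, pancreas and other endoderm factors were close to that of all tested genes. They leave out factors too low for the test: 15 of 20 liver, 11 of 19 pancreas and 14 of 21 matched other endoderm factors were tested. Of those left out, some had no count in KO mTEChi, such as Neurog3 (47 counts in WT mTEChi, at least 8.11-fold lower) and Nr1h4 (41 counts, at least 7.06-fold lower). Others differed little, such as Nkx6-3 at 0.597 CPM in KO mTEChi against 0.649 in WT mTEChi. The median log2 changes of the tested intestine, liver, pancreas and other endoderm factors were -0.06, -0.01, -0.23 and -0.46. Among intestine factors Tcf7l2, the Wnt effector of crypts, rose to 249.9 ± 19.8 CPM in KO mTEChi against 123 ± 11.3 in WT mTEChi (log2 1.00 ± 0.10, adjusted p = 4.3e-09). Hoxb13, a factor of hindgut and prostate, fell to 0.1097 ± 0.219 CPM against 7.32 ± 2.73 (76.5-fold lower with a counting interval of 13.5 to 3044, adjusted p = 1.6e-07). Creb3l1, a factor of the secretory pathway, fell to 1.77 ± 1.24 CPM in KO mTEChi against 13.1 ± 2.82 in WT mTEChi but rose to 14.1 ± 2.66 CPM in KO mTEClo against 6.19 ± 1.45 in WT mTEClo. Among the others Zhx2, a repressor known from liver (log2 0.58 ± 0.12, adjusted p = 1.5e-04), and Insm1 of endocrine cells (log2 0.48 ± 0.16, adjusted p = 0.014) rose in KO mTEChi. In the same lists Prox1 (log2 -1.01 ± 0.23, adjusted p = 5.8e-04) and Onecut2 (log2 -1.07 ± 0.29, adjusted p = 0.0027) of liver and Neurod1 (log2 -2.27 ± 0.74, adjusted p = 0.011) of endocrine cells fell in KO mTEChi. Foxi1, the ionocyte factor, fell (log2 -5.53 ± 0.56, adjusted p = 4.4e-09), and Eomes, a T-box factor, rose (log2 2.20 ± 0.23, adjusted p = 8.1e-09). In KO mTEClo, where 9.69% of all tested genes were lower and 12% higher, 1 of 17 intestine factors fell and 7 rose. Of 15 liver factors 2 fell and 2 rose, and of 11 pancreas factors none fell and 2 rose. Of the 14 endoderm and airway factors 3 fell and 2 rose, with Barx1 of stomach up (log2 2.64 ± 0.44, adjusted p = 7.4e-05) and Foxj1 of ciliated cells down (log2 -1.84 ± 0.35, adjusted p = 5.5e-04).

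Products of the tissues these factors specify were called lower more often than higher in KO mTEChi, in lists that were chosen with earlier results known. Of 39 enterocyte products 27 fell and 2 rose, of 37 hepatocyte products 21 fell and 4 rose, of 21 goblet and mucous products 16 fell and 2 rose. Of 18 stomach products 12 fell and 1 rose, of 19 pancreas products 14 fell and 3 rose, and of 16 airway secretory products 12 fell and none rose. These counts stand beside 28% lower and 25.7% higher over all tested genes, and the difference from the factor lists was not tested. The median log2 changes were -1.05, -1.50, -3.21, -1.92, -2.90 and -2.32, against -0.01 over all tested genes. Alpi, intestinal alkaline phosphatase, was at 0.517 ± 0.562 CPM in KO mTEChi against 24.1 ± 1.84 in WT mTEChi (log2 -5.50 ± 0.51, adjusted p = 7.2e-10). Alb, serum albumin, had no count against 20.7 ± 4.77 CPM, at least 69.2-fold lower. Zg16, a goblet lectin, was at least 48.99-fold lower and Ins2, insulin, at least 35.6-fold lower, both without a count in KO mTEChi. Pgc, a pepsinogen, was at 1.04 ± 0.706 CPM against 80.9 ± 18.8 (log2 -6.17 ± 0.42, adjusted p = 1.7e-11). Slc2a2, the glucose transporter of islets and liver, went the other way, at 23.4 ± 5.75 CPM in KO mTEChi against 8.27 ± 2.23 in WT mTEChi. In KO mTEClo 9 of 39 enterocyte products fell and none rose, among them Apoa4 (log2 -2.22 ± 0.49, adjusted p = 0.0022). There 2 of 37 hepatocyte products fell and 1 rose, 5 of 21 goblet products fell and 1 rose, and 3 of 18 stomach products fell and 2 rose. Of 19 pancreas products 2 fell and 1 rose, and of 16 airway products 7 fell and 1 rose. With 9.69% lower and 12% higher over all tested genes, the pancreas list was near the share that fell and the hepatocyte list below it. Muc5ac, the gastric and airway mucin, fell to 3.45 ± 1.56 CPM in KO mTEClo against 79.1 ± 75.6 in WT mTEClo (log2 -4.82 ± 1.02, adjusted p = 0.0023). The members of these lists that rose or fell were counted over genes, and no link to the transcription factors was tested.

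**Figure D5:**
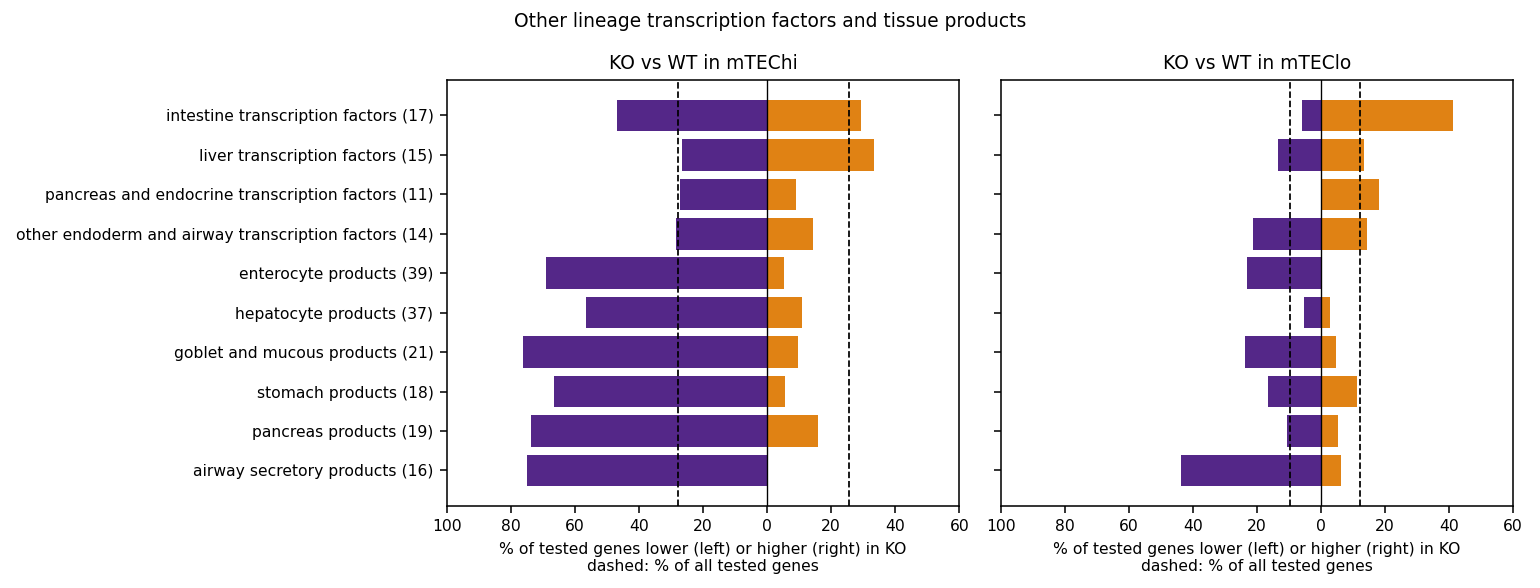
Share of tested genes that were lower (left of 0) or higher (right of 0) in KO, in % (x axes), for 10 lists of other lineage transcription factors and tissue products with the number tested in brackets, in mTEChi (left panel) and mTEClo (right panel); dashed lines are the shares over all tested genes. Product lists reach far past the left dashed line in mTEChi, where 28% of all genes were lower, and the liver, pancreas and other endoderm factor lists end close to it. Genes too low for the test are not in these shares.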

How the data were processed

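RNA of sorted mTECs was measured in 23 libraries. Per the labels' protocols, not-so-random and oligo dT primers gave the cDNA and Tn5 the libraries, a method that keeps no strand, so reads of overlapping genes cannot be told apart by strand. The authors deposited raw counts per Ensembl gene for 53402 identifiers, and per the submitters' processing notes edgeR, HTSeq 0.11.2, STAR 2.7.3a, fastp 0.20.0, Picard 2.21.1 and SAMtools 1.9 were used on mm10 (GRCm38), with no role or order given. A normalized table was not used. Symbols, positions and exon lengths came from GENCODE mouse release 21, and promoters from RefSeq (GRCm38.p6).

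Genes passed filterByExpr by group (minimum count 10), and 19310 were fitted in edgeR 4.0.16 (R 4.3.3) with TMM factors, robust quasi-likelihood and 1 term per group plus sex over all 23 libraries. As every KO library was male, the sex term rests on WT libraries. A call is a Benjamini-Hochberg adjusted p under 0.05 over all genes of a comparison. Intervals are 95% on the log2 scale, and CPM per kb is CPM over the union exon length. A gene at 0 in a group was set to 3 counts over the group for a bound, and with 1 to 3 counts an exact counting interval was taken. These bounds and intervals cover counting error only. The fit was tested on simulated counts. Alternatives included DESeq2 1.42.0, RLE factors, no filter, no sex term, an age term, males only, gates fitted apart, a replicate block, and each library left out.

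The members and the 17 gene lists (351 symbols, 350 matched) were chosen with earlier results of these data known, from general knowledge of the organs. Genes named from the lists were among those with the smallest p in KO against WT of each gate, up to 3 per list in mTEChi and 2 in mTEClo, apart from Epcam, which was added after its values were seen. For likeness, 3 genes per factor were taken among those with a mean of at least 2 CPM and a profile SD of at least 0.5 times that of the factor. Replicate numbers were taken to pair KO mTEChi with KO mTEClo, a choice that the labels do not state. The deviations of each same-numbered pair from the group means correlated at 0.139 to 0.222. These pairs also share age, and libraries of the same age with different numbers were not compared. Pairing by animal was therefore not shown.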

Additional observations from a re-analysis of the deposited data

Results flagged for a closer look

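The effect of Aire loss differed between the gates for 3 of the 9 tested factors by the interaction of genotype and gate in edgeR's quasi-likelihood test. Over all tested genes 14% had a lower and 10.8% a higher KO effect in mTEChi than in mTEClo. Foxa2 gave a log2 difference of -2.21 (adjusted p = 0.0019), and Spdef gave -1.62 (adjusted p = 0.039), a call lost in 17 of 35 alternatives. Cdx2 gave a fitted value of -6.16 (adjusted p = 9.8e-04), which is no measure of size because KO mTEChi had no count. With KO libraries of 5 weeks only, none of the 3 was called.

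Single libraries stood apart from the rest of their group in 5 of 38 groups of values by Dixon's ratio of gap to range. Its rate of about 1 in 20 by chance holds for normally spread values. It does not hold for values of 0 or 1 count, as for Pdx1 below, so no excess over chance is read from the 5. Hnf4g was at 34.9 CPM in WT mTEClo replicate 5, and the next library was at 22.9. Foxa3 was at 5.999 CPM in WT mTEChi replicate 5, next to 4.28, and at 9.76 CPM in WT mTEClo replicate 1, next to 5.35. Pdx1 was at 0.243 CPM in KO mTEClo replicate 4, where the other KO libraries had none, and at 0.574 CPM in WT mTEClo replicate 1, next to 0.255; each of these is a single count.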

How the results depend on the processing

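The 45 tested values of the 9 transcription factors were recomputed under 23 settings that leave out 1 library and 15 others, giving 1173 values, of which 1108 kept direction and side of the threshold, 24 lost a call, 7 gained one and 34 changed sign. The settings by age of the KO libraries, those that leave out or model the 6 shallowest libraries, and the block within KO libraries were chosen after seeing the data. No change of sign touched a called value except Foxa1 between KO gates (-0.019 with KO libraries of 6 weeks only). The other changes of sign were of values near 0 or without a call, and their cause was not tested. Hnf4g in KO against WT mTEChi was -0.0216 with relative log expression (RLE) factors, -0.0274 with DESeq2, -0.0268 without the sex term, -0.0703 with males only, -0.15 with males of 5 weeks, -0.0691 with gates fitted apart and -0.19 with KO libraries of 5 weeks, and -0.0746 to 0.13 with a library left out. Foxa3 there was -0.0111 with RLE factors, -0.0106 with DESeq2, -0.0339 without the sex term, -0.37 with KO libraries of 6 weeks and -0.10 to 0.17 with a library left out. Foxa1 there was -0.23 with KO libraries of 6 weeks and -0.0144 to 0.21 with a library left out. Foxa2 in KO against WT mTEClo was -0.23 with sex and age terms, -0.39 with KO libraries of 5 weeks and -0.0488 to 0.49 with a library left out. The difference of KO effects between the gates turned to 0.86 for Hnf4a, 0.00753 for Foxa3 and 0.42 for Gata4 with KO libraries of 5 weeks, and to -0.14 for Foxa1 with those of 6 weeks.

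The genes called in KO against WT mTEClo numbered 4186, 1504 with sex and age terms and 2240 at an adjusted p under 0.01, and those called for the difference between gates 4792 and 2856 at the stricter threshold. Of the 9 factors, 2 were called in KO against WT mTEClo, 1 with sex and age terms, 1 without the 6 shallowest libraries and 5 with KO libraries of 5 weeks, and 2 to 3 with a library left out. For the difference between gates 3 were called. With KO libraries of 5 weeks none of these 3 was, and 1 other was, Foxa1 (1.30, adjusted p = 1.4e-04), and the number called was 2 to 4 with a library left out. Between KO gates 7 were called, and 4 with the replicate block within KO libraries only. With the replicate block over all libraries Hnf4g was -0.0395 and Foxa3 -0.0682 in KO against WT mTEChi, the Spdef difference between gates lost its call (-1.57, adjusted p = 0.058) and no other call of a factor changed. Same-numbered libraries of other pairs of groups correlated at most 0.0979 in their deviations from the group means, so outside the KO gates the numbers were not taken as pairs. The adjusted p of the Spdef difference ran from 0.0071 to 0.19 over its alternatives. Without KO mTEClo replicate 4, Foxa1 in KO against WT mTEClo was called (-0.66, adjusted p = 0.009), and so was its difference between gates (0.73, adjusted p = 0.016). Cdx2 between KO gates gave no value with KO libraries of 5 weeks only, as both groups were then at 0. Depth limits the low values: no library held more than 11 counts of Pdx1 or 25 of Cdx2, and Foxa2 and Spdef had 15 counts each over the 4 KO mTEChi libraries.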
